A study of Arabidopsis thaliana with 9 samples.

Results

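The growth-regulating factors (GRFs) whose transcripts carry a site for the microRNA miR396 were followed through heat and recovery by the RNA ends that miRNA-guided cleavage leaves behind. The set held 7 genes, chosen by locus: GRF1 (AT2G22840), GRF2 (AT4G37740), GRF3 (AT2G36400), GRF4 (AT3G52910), GRF7 (AT5G53660), GRF8 (AT4G24150) and GRF9 (AT2G45480). Of these, 4 were listed in at least 1 library, among 1508 loci listed in all, and GRF7, GRF8 and GRF9 were listed in no library. RNA ends were captured with nanoPARE, which sequences the 5′ ends of RNA, from 7-day-old wild-type Col-0 Arabidopsis seedlings. Control seedlings were not heated, HS seedlings were held for 1 h at 37°C, and Recovery seedlings were returned to 22°C for 2 h after the same heat. Each group held 3 libraries, described as biological replicates, and whole seedlings were used, so that fewer cells of a kind and less RNA per cell cannot be told apart.

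GRFs are plant transcription factors that promote cell proliferation in young leaves and other growing organs, and they act together with coactivators named GRF-INTERACTING FACTORs (GIFs). miR396, loaded into the slicer AGO1, pairs with GRF transcripts and directs their cleavage opposite the middle of the miRNA. In Arabidopsis leaves miR396 is known to accumulate with age, which limits GRF activity to dividing cells.

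Both miR396 guides named in the lists are shown here because the GRF lines name only the first of them. They were read from the TAIR10.1 reference of RefSeq, on chromosome 2 (4142443 to 4142463, minus strand) for miR396a-5p and on chromosome 5 (13611808 to 13611828, plus strand) for miR396b-5p, with the seed (bases 2 to 8) in capitals.
miR396a-5p: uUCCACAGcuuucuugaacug
miR396b-5p: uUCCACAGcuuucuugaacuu
The guides share their seed and differ at 1 base, G21U counted from the 5′ end. The lists give 1 guide per slice site, so a GRF line named for miR396a-5p does not tell which of the 2 guides acted.

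The GRF sites are shown to compare the listed members with the unlisted ones. Each is 22 bases long in the transcript against 21 in the guide, and was aligned with 1 extra base between those facing miRNA bases 7 and 8. Capitals mark that extra base and the bases that form no Watson-Crick pair with miR396a-5p, so a T facing a G is in capitals.
GRF1: TCgttcaagaaagcCtgtggaa
GRF2: TCgttcaagaaagcCtgtggaa
GRF3: cCgttcaagaaagcCtgtggaa
GRF4: cCgttcaagaaagcCtgtggaa
GRF7: TCgttcaagaaagcAtgtggaa
GRF8: TCgttcaagaaagcAtgtggaa
GRF9: ACgttcaagaaagcTtgtggaa
The 4 listed genes carried 2 versions of the site, the same in GRF1 and GRF2 and the same in GRF3 and GRF4. Counted from the 5′ end of the site and relative to GRF3, GRF1 and GRF2 had the change C1T. GRF7 and GRF8 had C1T and C15A, and GRF9 had C1A and C15T, so the 3 unlisted members differed from the listed ones at the extra base. Whether this base bears on the listing was not tested. Beside the extra base, the GRF3 and GRF4 sites had 1 mismatch to miR396a-5p and the other 5 sites had 2. Any base outside a Watson-Crick pair was counted as a mismatch. This takes in the first T of GRF1, GRF2, GRF7 and GRF8, which faces a G of the guide. The deposited Allen score, a penalty for mismatches in which 0 is perfect pairing, was 4 for each of the 4 listed sites. The same 13 bases, CGTTCAAGAAAGC, lie in all 7 members and in the annotated transcripts of 11 of 31346 genes (0.0351%, sense strand only), and each complete site was found in no gene outside the members.

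All 7 sites lie in the coding sequence. In TAIR10.1 the GRF3 site spans chr2:15271745-15271766 (minus strand, exon 3 of 4) and starts at base 540 of 1197 coding bases. The GRF1 site spans chr2:9729944-9729965 (plus strand, exon 3 of 4), the GRF2 site chr4:17726404-17726425 (minus strand, exon 3 of 4) and the GRF4 site chr3:19617293-19617314 (minus strand, exon 3 of 4). The unlisted sites lie at chr5:21795145-21795166 for GRF7 (exon 2 of 3), chr4:12538649-12538670 for GRF8 (exon 5 of 6) and chr2:18746292-18746313 for GRF9 (exon 3 of 5), all on the plus strand. Deposited slice positions, which count along the transcript, were 756 for GRF3, 791 for GRF1, 920 for GRF2 and 752 for GRF4. The base facing miRNA base 10 lay 293, 277, 180 and 59 bases further along the RefSeq transcripts of these genes, a shift whose cause was not tested. The 50 bases that follow the cut differed at 16 to 35 positions between any 2 members, with 20 differences between GRF3 and GRF4 and 16 between GRF1 and GRF2.

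The 9 lists held 3041 lines at 1662 slice sites. Signal is given in RPM (the read number normalised to the size of the library), and 1 read was worth 0.217 to 0.429 RPM, which implies 2331769 to 4609739 reads per library. Control replicate 1 was the shallowest library and Recovery replicate 3 the deepest. Of 8 heat shock genes 7 were listed, and their summed signal was at most 0.349 RPM in Control, 31.1 to 83.1 RPM in HS and 5.42 to 11.1 RPM in Recovery, which follows the labels. Of 9 marker genes of green tissue 4 were listed, with a sum of 19.5 to 32.2 RPM in Control, 5.77 to 19.7 RPM in HS and 3.71 to 13.2 RPM in Recovery, and of 5 root markers none was. The part of these shifts in the GRF values was not tested.

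GRF3, a promoter of leaf growth, carried most of the cleavage signal of the family in Control. Its miR396 site gave 0.429 RPM in Control replicate 1, 3.14 RPM in replicate 2 and 4.42 RPM in replicate 3. In HS the site gave 0.681, 0.251 and 0.326 RPM, and in Recovery 0.291, 0.618 and 0.217 RPM, in replicate order. Control replicates 2 and 3 thus lay above all other libraries, while Control replicate 1 fell within the range of HS and Recovery, and the groups overlapped. These values stand for 1, 9 and 14 reads in Control, 2, 1 and 1 in HS and 1, 2 and 1 in Recovery. Control averaged 2.66 ± 2.04 RPM, HS 0.419 ± 0.230 RPM and Recovery 0.375 ± 0.213 RPM (SD, n = 3), so that the mean in Control exceeded that in HS by a factor of 6.35 and that in Recovery by a factor of 7.09.

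**Figure D1:**
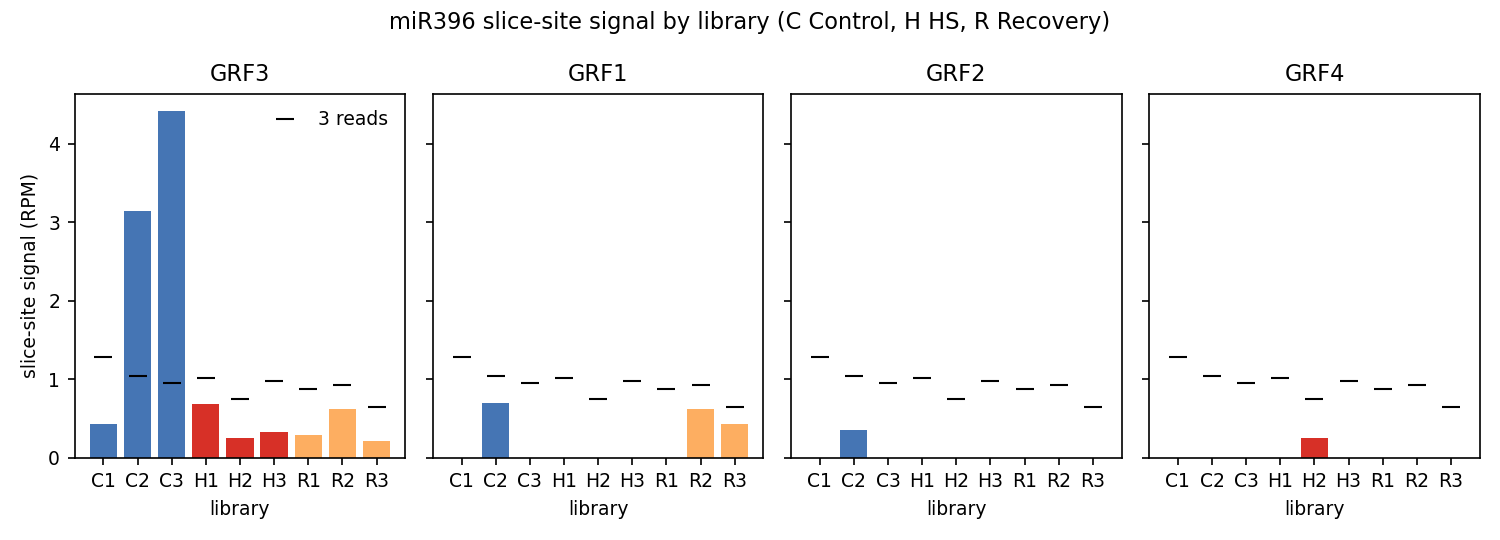
Slice-site signal (RPM, bars) at the miR396 sites of GRF3, GRF1, GRF2 and GRF4 in each of the 9 libraries (C, Control; H, HS; R, Recovery), with the value of 3 reads in each library as a dash. GRF3 passed 3 reads in Control replicates 2 and 3 (3.14 and 4.42 RPM) and stayed below it in the other 7 libraries, and no bar of GRF1, GRF2 or GRF4 reached it.

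Counting error alone leaves a wide range for the single read of Control replicate 1. Its exact Poisson 95% interval was 0.0109 to 2.39 RPM, against 1.44 to 5.96 RPM for replicate 2 and 2.42 to 7.42 RPM for replicate 3. In HS the upper limits were 1.40 to 2.46 RPM and in Recovery 1.21 to 2.23 RPM. The interval of Control replicate 3 reached down to 2.42 RPM and met only the upper limit of HS replicate 1 among the heated libraries. Over each group, GRF3 held 24 reads in Control (95% interval 15.4 to 35.7), 4 in HS (1.09 to 10.2) and 4 in Recovery (1.09 to 10.2). Such intervals cover counting error only, and copies made by PCR count as separate reads in them.

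Control replicate 1 was not low at every miRNA target. In that library ARF10, an auxin response factor cut under miR160, gave 5.58 RPM, its highest value in any library, against a Control mean of 4.74 ± 0.756 RPM (SD, n = 3). HAM1, a HAIRY MERISTEM factor of the shoot meristem and target of miR171, gave 3.43 RPM there, against 2.09 and 2.53 RPM. ARF17, another miR160 target, had its lowest Control value in replicate 1, at 1.72 RPM against 6.63 and 4.42 RPM. So did HAM3, a miR171 target (0.429 RPM), and ARF8, a miR167 target (0.858 RPM), while HAM2 had its highest there (2.14 RPM). ARF6 and ARF16 lay between their values in the other Control libraries.

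The fit across all sites did not call GRF3. Sites that 3 or more libraries listed, 322 in all, entered 1 limma fit of log2(RPM + 1) over the 3 groups, with Benjamini-Hochberg adjustment over these sites. Between HS and Control the GRF3 site had a log2 change of −1.17 (SE 0.437, 95% interval −2.08 to −0.27), with a limma p of 0.0136 and an adjusted p of 0.150. It ranked 29 of 322 sites by p in this comparison, in which 4.97% of sites were called, and the median change of all sites was −0.13. Between Recovery and Control the log2 change was −1.22 (SE 0.437, 95% interval −2.13 to −0.31), with a limma p of 0.0108 and an adjusted p of 0.102, against 2.8% of sites called. These comparisons share the Control libraries. The scale understates changes of low sites.

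Without Control replicate 1 the GRF3 site was called in both comparisons. Its log2 change was then −1.75 between HS and Control (limma adjusted p = 0.0206) and −1.80 between Recovery and Control (limma adjusted p = 0.0189). Without Control replicate 3 the changes shrank to −0.79 and −0.83 (limma adjusted p = 0.467 and 0.327). The lower value in HS and in Recovery held its direction in each of the 18 alternatives run for each comparison. Many of these could not fail this check. Other filters, Allen scores up to 4, the trend and the replicate block leave the log2 change as it was. So do fitting only the compared groups and leaving out a library of the group outside the comparison. The other alternatives reuse the same libraries.

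**Figure D2:**
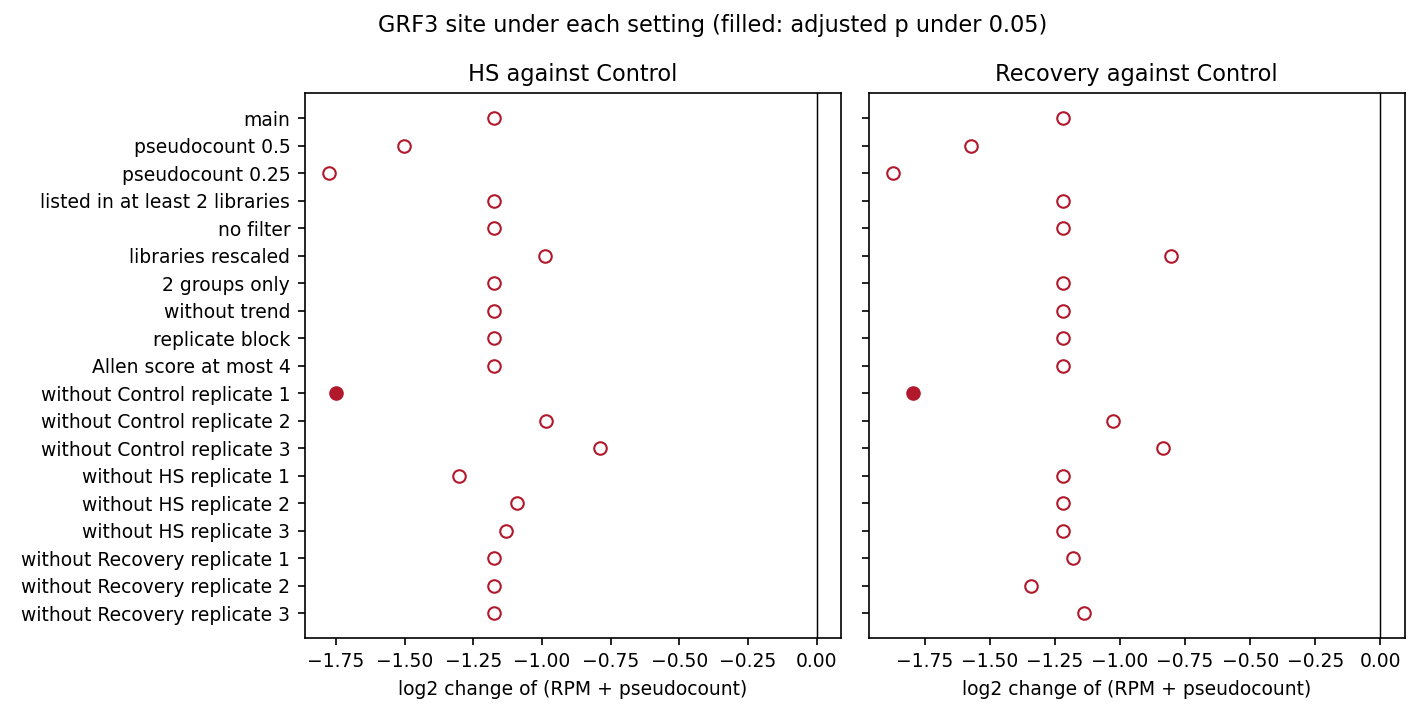
log2 change of the GRF3 site between HS and Control (left) and between Recovery and Control (right) in the reported fit ("main") and in each of 18 alternatives. Filled points have a limma adjusted p under 0.05. All points lie below 0, and the filled ones are those without Control replicate 1, at −1.75 and −1.80. Settings that do not enter the log2 change repeat the value of the reported fit.

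Between Recovery and HS the GRF3 signal did not differ detectably. The log2 change was −0.04 with a 95% interval of −0.95 to 0.86 (limma adjusted p = 0.999), in a comparison that called 0.932% of sites. That interval leaves room for a change of nearly 1 log2 unit either way. Its sign turned with rescaled libraries, to 0.18, without HS replicate 1, to 0.08, and without Recovery replicate 3, to 0.04.

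GRF3 was listed in every library, even where it held a single read. Of the 1662 sites, 13 (0.782%) were listed in all 9 libraries, and GRF3 was the only one of the 13 with the authors' adjusted p under 0.05 in any library. The other 12 included sites in LHCB1.3, a light-harvesting protein, and in TCTP. GRF3 also had the highest median fold over local background among the 13, at 1.25, and the other medians lay at or below 0.763. That median was the value of HS replicate 1, with 2 reads at the site against 1 in the background. Control replicates 1 and 3, HS replicates 2 and 3 and Recovery replicate 3 had no background read. With a read at the site, the fold there exceeds 1 by construction.

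The deposited fold sets the slice site against a local background, as (site RPM + 1) over (background RPM + 1). At GRF3 it was 1.43, 3.07 and 5.42 in Control, 1.25, 1.25 and 1.33 in HS, and 1, 1 and 1.22 in Recovery, in replicate order. Solved for the background, GRF3 held 24 reads at the site against 1 beside it in Control, 4 against 1 in HS and 4 against 3 in Recovery. In Recovery replicates 1 and 2 the site was therefore no higher than its surroundings. The authors' adjusted p was listed as 0 in Control replicates 2 and 3 and was 0.222 to 0.363 in the other 7 libraries. No test of the background between groups was run.

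**Figure D3:**
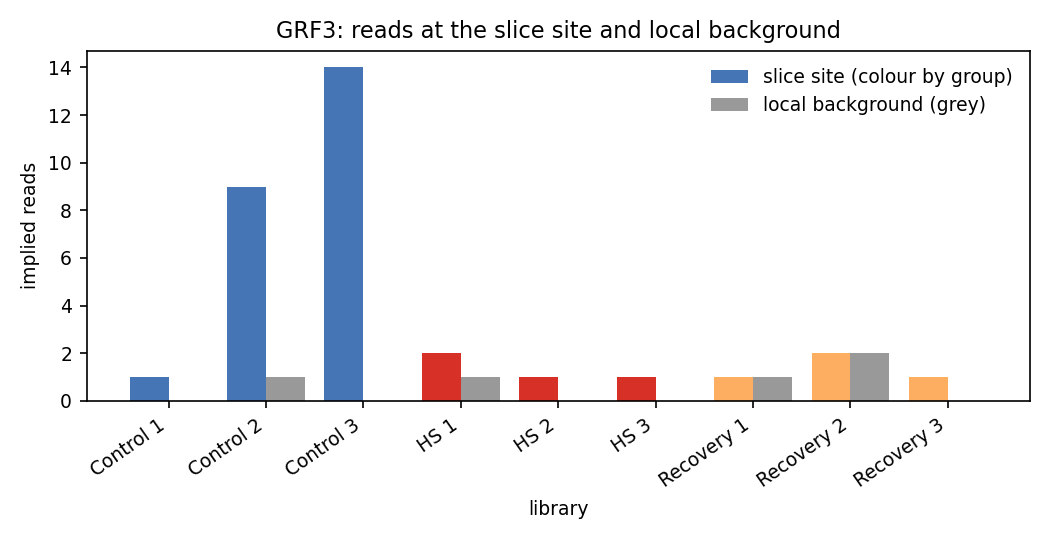
Implied reads at the GRF3 slice site (coloured bars) and in its local background (grey bars) for each library. The site stands well above its background in Control replicates 2 and 3, with 9 and 14 reads against 1 and 0, and equals it in Recovery replicates 1 and 2.

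GRF1, which acts in leaf and cotyledon growth, was listed at very low levels and in few libraries. Its miR396 site gave 0.698 RPM in Control replicate 2, 0.618 RPM in Recovery replicate 2 and 0.434 RPM in Recovery replicate 3, each worth 2 reads, and was not listed in the other 6 libraries. No HS library listed it. If a missing line stands for 0 reads, which the sources do not state, a 1-sided 95% Poisson limit allows about 3 reads per library. That is worth 0.753 to 1.02 RPM in the HS libraries. The 2-sided interval used for GRF3 would reach 3.69 reads. All of the GRF1 values were below the worth of 3 reads in their library, so a difference between groups was not detectable at this depth. The log2 change of the site was −0.25 between HS and Control (95% interval −0.81 to 0.30, limma adjusted p = 0.622) and 0.15 between Recovery and Control (−0.40 to 0.71, limma adjusted p = 0.751). Between Recovery and HS it was 0.40 (−0.15 to 0.96, limma adjusted p = 0.574). The fold over local background was 1.26, 1.24 and 1 in the 3 listing libraries, and Recovery replicate 3 also listed GRF1 at position 1660 for miR834, with 1 read and an Allen score of 6.

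GRF2 and GRF4 each appeared once. GRF2, a close relative of GRF1, was listed in Control replicate 2 alone, at 0.349 RPM, which is 1 read. GRF4 was listed in HS replicate 2 alone, at 0.251 RPM, again 1 read. Neither site entered the fit, which needed 3 listing libraries. GRF4 carries the same 22-base site as GRF3, and GRF2 the same as GRF1, so genes with the same site held 32 and 1 reads in all (GRF3 and GRF4) and 6 and 1 reads (GRF1 and GRF2). Levels of the transcripts themselves were not analysed here, so cleavage ends per transcript are not given.

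GRF7, which in Arabidopsis represses stress-responsive genes, GRF8 and GRF9, a factor that limits leaf size, were not listed. Read as 0 reads, a missing line allows about 3 reads per library by the same 1-sided limit, for counting error only. That is worth 0.651 RPM in Recovery replicate 3 and up to 1.29 RPM in Control replicate 1.

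Of the 7 members, 2 sites were therefore tested, GRF3 and GRF1. Called by limma were 0 of the 2 in each of the 3 comparisons, and at an unadjusted p under 0.05 GRF3 alone passed, in both comparisons with Control. That threshold was passed by 15.8% of all sites between HS and Control, 19.3% between Recovery and Control and 11.8% between Recovery and HS. Summed per locus over distinct slice positions, 333 loci were tested, and again 0 of the 2 members were called, against 4.5% of loci between HS and Control, 2.7% between Recovery and Control and 1.5% between Recovery and HS. The GRF3 locus had limma adjusted p values of 0.153, 0.125 and 0.989 in these comparisons. Without Control replicate 1 it was called in both comparisons with Control (limma adjusted p = 0.0144 and 0.0193).

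Summed over the members, Control averaged 3.01 ± 2.24 RPM, HS 0.503 ± 0.177 RPM and Recovery 0.798 ± 0.476 RPM (SD, n = 3). By library the sum was 0.429, 4.19 and 4.42 RPM in Control, 0.681, 0.502 and 0.326 RPM in HS and 0.291, 1.24 and 0.868 RPM in Recovery, in replicate order. Recovery replicates 2 and 3 lay above every HS library and Recovery replicate 1 below all of them. With the miR396 lines alone, without the miR834 line of GRF1, Recovery replicate 3 had 0.651 RPM and fell within the HS range. At the miR396 sites of the members, GRF3 made up 88.4% of the RPM in Control (24 of 27 reads), 83.4% in HS (4 of 5 reads) and 51.7% in Recovery (4 of 8 reads). In Recovery replicate 3 the miR396 site of GRF1, at 0.434 RPM, lay above that of GRF3, at 0.217 RPM. Without GRF3 the miR396 sites of the other members held 3 reads in Control, 1 in HS and 4 in Recovery.

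Other conserved targets give a scale for these values. ARF10 gave 4.74 ± 0.756 RPM in Control and ARF17 4.25 ± 2.46 RPM, so GRF3, at 2.66 ± 2.04 RPM, was near HAM1 (2.68 ± 0.683 RPM) and ARF8 (1.99 ± 1.62 RPM), an auxin response factor cut under miR167 (SD, n = 3). The Control values of GRF3 ran from 0.429 to 4.42 RPM and those of ARF8 from 0.858 to 3.84 RPM. In heat, ARF10, ARF16, HAM1 and HAM3 were listed in 0 of 3 HS libraries. HAM2, ARF6 and ARF8 were listed in 1 each, ARF17 in all 3 and GRF3 in all 3. The log2 change of GRF3 between HS and Control, −1.17, lay among those of HAM2 (−1.15), ARF8 (−1.31) and ARF17 (−1.58). limma called these 3 in the same fit (adjusted p = 0.0427, 0.0427 and 0.0467), and also ARF10 (−2.51) and HAM1 (−1.86). ARF10, HAM1, HAM2 and ARF8 were each listed in 4 libraries, 3 of them Control. They passed the filter of 3 libraries only through Control, where they were high. The filter thus favoured a lower value in HS, and their calls are no separate evidence of a fall. HAM3 (−0.82), ARF6 (−0.72) and ARF16 (−0.56) were not called (limma adjusted p = 0.236, 0.364 and 0.306). Whether GRF3 differed from these targets was not tested.

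**Figure D4:**
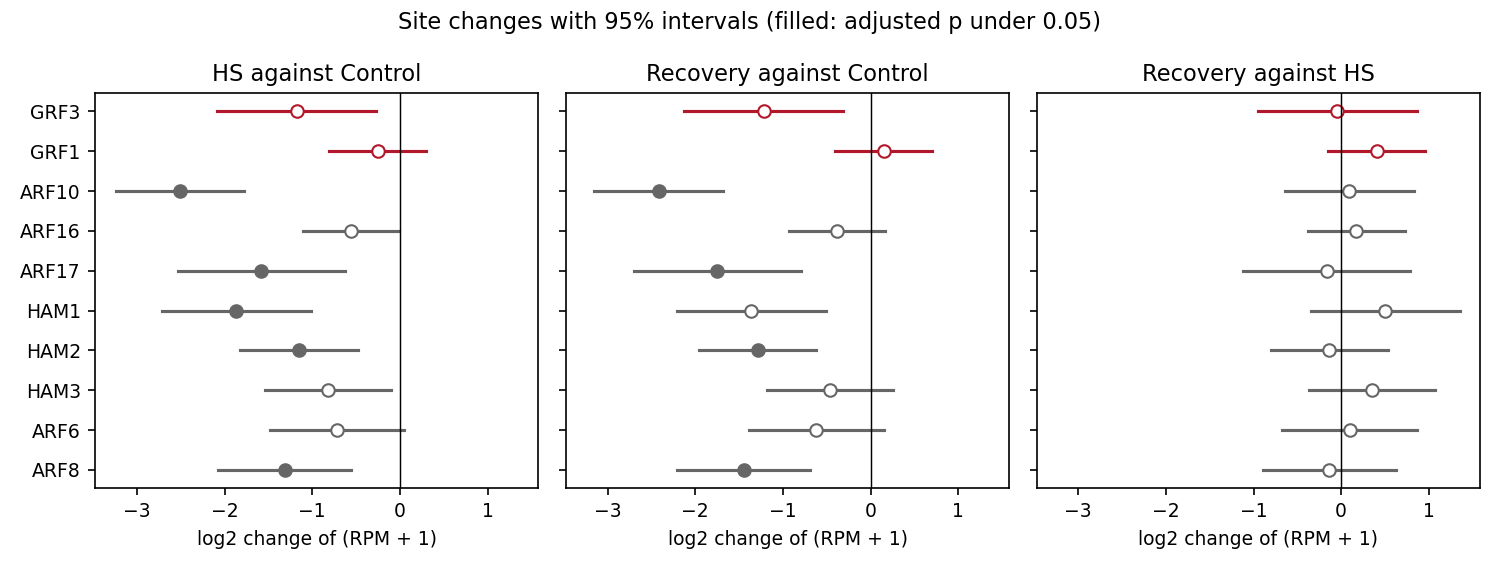
log2 change of (RPM + 1) with 95% intervals for the GRF3 and GRF1 sites (red) and 8 sites of miR160, miR171 and miR167 targets (grey) in 3 comparisons, filled where the limma adjusted p is under 0.05. GRF3 sits at −1.17 and −1.22 against Control with open points, and GRF1 lies close to 0.

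Other genes of the miR396 pathway were barely seen. GRF5 and GRF6, which lack a close miR396 match in the reference (at least 8 mismatches in the same alignment), were not listed, nor were GIF2, GIF3, the flowering repressor SVP and the miR396 precursors. GIF1, the coactivator of GRFs also named ANGUSTIFOLIA3, was listed at a site for miR779.1 in 4 libraries with 1 or 2 reads each, and an Allen score of 6. The transcription factor bHLH74, a known miR396 target, was listed for miR396a-5p in Control replicate 2 alone, at 0.698 RPM or 2 reads, with an Allen score of 5.5.

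Most lines named for miR396 lay outside the GRFs. There were 63 such lines at 41 sites, 35 lines for miR396a-5p and 28 for miR396b-5p, and 14 of the lines fell on members. The 37 other sites had a median Allen score of 5.5, 4 of them reached a score of 4 or less, and 31 were listed in a single library. GRF lines had a fold above 1 in 11 of 14 cases, other miR396 lines in 11 of 49. Of the 14 GRF lines 9 were the GRF3 site, once per library, so the lines are not independent. A site with a read and no background has a fold above 1 by construction. The authors' adjusted p was under 0.05 in 2 of the 63 lines, both at GRF3 in Control, against 4.14% of all 3041 lines.

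Sites outside the GRFs that at least 3 libraries listed for miR396 numbered 4. RAP2.12 (AT1G53910), a factor of the hypoxia response, gave 0.429, 1.05 and 1.26 RPM in Control, 0.326 RPM in HS replicate 3 and nothing elsewhere. Its log2 change was −0.77 between HS and Control and −0.91 between Recovery and Control (limma adjusted p = 0.209 and 0.0873), at an Allen score of 6. The authors' adjusted p of this site was at or above 0.769, and its highest fold over local background was 1.21. RAP2.12 passed the filter only through Control, where it was high. FLU (AT3G14110), a regulator of chlorophyll synthesis, AT5G27850 and ALP (AT5G60360) were each listed in 3 or 4 libraries at 0.309 to 1.36 RPM, with the authors' adjusted p at or above 0.617 in all of them and no call by limma.

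Loci whose values ran most like those of GRF3 over the 9 libraries were AT5G26360 (Pearson r = 0.93), AT4G09830 (r = 0.91) and smB (AT4G20440, r = 0.90), out of 333 loci compared. They were listed for miR858a, miR5012 and miR5633 with Allen scores of 4.5 to 6. For GRF1 they were AT1G49140 (r = 0.97), AT5G39610 (r = 0.93) and TMT2 (AT4G35300, r = 0.83). AT5G39610 is the miR164 target ORE1, a regulator of leaf ageing, which gave 1.05 RPM in Control replicate 2, 0.309 RPM in Recovery replicate 2 and 0.651 RPM in Recovery replicate 3, the same libraries that listed GRF1. These correlations describe 9 shared libraries with many values at 0.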

How the data were processed

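Seedling nanoPARE libraries (9, in 3 groups taken from the sample titles) were processed by the authors with the public nanoPARE pipeline on TAIR10, whose version is not given in the sources used here. Each deposited list gives 1 line per target and slice site, without pooling. The slice-site signal was deposited in RPM. The ratio deposited by the authors sets it against a local background. The deposited p-value is the authors' adjusted p per site. The deposited Allen score is a duplex penalty.

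In each library 1 read was set at its most frequent RPM value, and 89.2% to 94.1% of values were whole multiples of it within 0.01 read, so no count model was used. All 15 GRF values were whole. Unlisted sites were set to 0. limma 3.58.1 (R 4.3.3, eBayes with trend) was fitted to log2(RPM + 1) at a threshold of 0.05, and was tested on simulated data. The simulation only raised sites in HS, with the same setting of spread for all sites. It held no fall from a variable Control group, as at GRF3, so it does not bear on that case. Tables used Python 3.11.15, pandas 2.3.3, NumPy 2.4.6 and SciPy 1.17.1. Sites were matched to TAIR10.1 of RefSeq.

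Alternatives were other pseudocounts (0.5 and 0.25), filters (2 libraries or none), scaling, groups in the fit, trend, a replicate block, Allen scores up to 4, and each library left out. All members were named, with other miR396 sites in at least 3 libraries, 8 targets of other families and the 3 loci most alike. Members and lists were chosen with earlier results of these data known.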

Additional observations from a re-analysis of the deposited data

How the results depend on the processing

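Without Control replicate 1, 1 GRF site and 1 GRF locus (GRF3) were called against Control in HS and in Recovery, and the other settings called 0, so the counts ran from 0 to 1 when single libraries were left out. Between Recovery and HS 0 were called throughout. The change of GRF3 between Recovery and HS, at −0.04 in the reported fit, was 0.18 with rescaled libraries and ran from −0.17 to 0.084 without single libraries. The change of GRF1 between HS and Control ran from −0.38 to 0 without single libraries and was 0 without Control replicate 2. Its change between Recovery and Control, 0.15, ran from 0.0055 without Recovery replicate 2 to 0.40 without Control replicate 2, and that between Recovery and HS, 0.40, from 0.26 without Recovery replicate 2 to 0.61 without Recovery replicate 1. Rescaling moved the median of all sites by 0.13 between Recovery and Control, and GRF3 then had −0.80 in that comparison. No pairing by replicate number was seen. Deviations of same-numbered libraries correlated at −0.10 to 0.10 and those of differently numbered libraries at −0.10 to 0.13. Since the ranges nearly coincide, this check could not tell paired from unpaired libraries. With a replicate block the GRF3 change between HS and Control had a limma adjusted p of 0.172. Calls over all sites, 16, 9 and 3 in the reported fit for HS against Control, Recovery against Control and Recovery against HS, ranged over the alternatives from 5 to 18, 1 to 16 and 0 to 16, and over loci, 15, 9 and 5, from 7 to 19, 1 to 15 and 0 to 9. Summed GRF signal moved by less than 1 SD in every alternative. Leaving out 1 of 3 libraries cannot move a mean that far, so those alternatives could not fail this check. The Control mean, 3.01 RPM, ran from 2.31 RPM without replicate 3 to 4.30 RPM without replicate 1. Rescaled libraries lowered it to 2.33 RPM and raised the Recovery mean from 0.798 to 1.18 RPM, while the HS mean stayed near 0.50 RPM. Depth limits GRF1, GRF2 and GRF4, which never passed 2 reads at their miR396 site in a library.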
